A study of Mus musculus with 4 samples.

Results

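Lysosomes are acidic compartments in which hydrolases break down proteins, sugars and lipids that arrive by endocytosis and autophagy. The genes described here are those that the deposited expression table assigns to the KEGG lysosome pathway. From 176 rows so annotated among 56035 rows, those averaging 1 TPM or more over all 4 libraries were taken, where TPM is transcript abundance per unit of length, with all libraries set to 1 common total. Mcoln1 and another gene were set aside and are not described here, which left 110 genes. Members were chosen by annotation and by mean TPM over all libraries, a rule that does not use genotype. Their levels are thus a description, and only the difference between genotypes was tested. The members and the gene lists below were, however, chosen with earlier results of these data known. Their counts and medians may therefore not be independent of those results.

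The samples were trigeminal ganglia, the sensory ganglia of the face, from male C57BL/6 mice of 8 weeks. The knock-in group carried the K823R substitution in TRPV1, the heat- and capsaicin-gated cation channel of nociceptors, and is called K823R below. The comparison group was wild-type (WT) littermates. Each group had 2 libraries of mRNA copied with random primers, in which 21838 to 22119 genes were listed above 0; TPM keeps no read total, so depth is unknown. The genotype label calls the first group transgenic while the protocol calls it a knock-in, and neither zygosity nor the number of animals behind a library is stated there, so p-values measure only the spread between these libraries, which may be technical. The study concerned TRPV1 SUMOylation, in which SUMO, a small protein, is joined to a lysine, in itch. The comparison here asks whether transcripts of the lysosome differed between the genotypes.

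A lysosome is built from several sets of proteins. Soluble hydrolases receive a mannose 6-phosphate tag in the Golgi and are carried forward by mannose 6-phosphate receptors in vesicles coated with clathrin and adaptor complexes. Membrane glycoproteins such as LAMP1 line the organelle, a vacuolar ATPase pumps protons into it, and transporters release the products of digestion. Many of these genes are targets of TFEB and related MiT/TFE factors, which bind an E-box with flanking bases known as the CLEAR element. In sensory neurons lysosomes are abundant in the cell body and move along the axon, and in the ganglion satellite glia, Schwann cells and macrophages have them too.

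Promoter sequences are shown first because the shared regulation of the pathway is known from its promoters. RefSeq windows on GRCm38.p6, from 250 bases before to 50 after a transcription start, were matched to 86 of the 110 genes through 103 windows. The core E-box CACGTG, which reads the same on both strands, was in 24 of the 103 windows (23.3%), against 2349 of 32851 windows of all genes (7.15%). Its extension TCACGTGA was in 10 windows (9.71%), against 320 of all windows (0.974%), and a 10-base palindrome, the same 8 bases between G and C, in 2 (1.94%), against 107 (0.326%). The longer forms contain the shorter ones. By gene, 23 of 86 (26.7%) had the core, against 2187 of 27025 genes (8.09%). Members averaged 1 TPM or more, while the windows of all genes had no such limit, so these shares are not matched for expression. A match describes these letters in these windows and does not show binding.

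Windows of 26 bases around 6 of the extended motifs are given because they show the letters on either side of the core in genes of different roles, with the motif in capitals and coordinates on GRCm38.p6, 5′ to 3′ on the gene's strand. Ctsd and Gla encode hydrolases, Cln3 and Cd164 membrane proteins, Igf2r a sorting receptor and Atp6v0d1 a pump subunit.
Ctsd (chr7:142387910-142387935, minus strand): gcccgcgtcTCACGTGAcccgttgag
Gla (chrX:134601217-134601242, minus strand): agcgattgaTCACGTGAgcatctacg
Cln3 (chr7:126583342-126583367, minus strand): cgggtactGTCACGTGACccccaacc
Igf2r (chr17:12769698-12769723, minus strand): cgactcagGTCACGTGACgctccggg
Atp6v0d1 (chr8:105566052-105566077, minus strand): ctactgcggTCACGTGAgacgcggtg
Cd164 (chr10:41519403-41519428, plus strand): ccgggctgcTCACGTGAccggcgcgc

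The positions of the motif centres are not alike. Gla had the 8-base form at -224 and -191 from its start, Cd164 at -84 and Atp6v0d1 at 0. Lamp1 had 4 copies of the 6-base core at -58, -42, -25 and -12. The 250 bases before the start of Ctsd and of Lamp1 are printed whole to show 1 promoter with an extended motif and 1 with repeated cores, motifs again in capitals.
Ctsd (chr7:142387828-142388077, minus strand): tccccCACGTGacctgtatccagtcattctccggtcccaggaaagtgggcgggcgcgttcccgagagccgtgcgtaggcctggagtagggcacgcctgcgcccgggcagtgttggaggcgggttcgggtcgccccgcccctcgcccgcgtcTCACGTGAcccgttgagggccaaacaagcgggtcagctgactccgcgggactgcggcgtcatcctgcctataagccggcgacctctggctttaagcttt
Lamp1 (chr8:13158911-13159160, plus strand): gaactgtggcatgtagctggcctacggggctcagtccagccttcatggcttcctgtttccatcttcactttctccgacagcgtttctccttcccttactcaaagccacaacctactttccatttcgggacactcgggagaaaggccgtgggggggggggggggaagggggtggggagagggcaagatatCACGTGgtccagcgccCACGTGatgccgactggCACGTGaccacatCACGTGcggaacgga

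**Figure D1:**
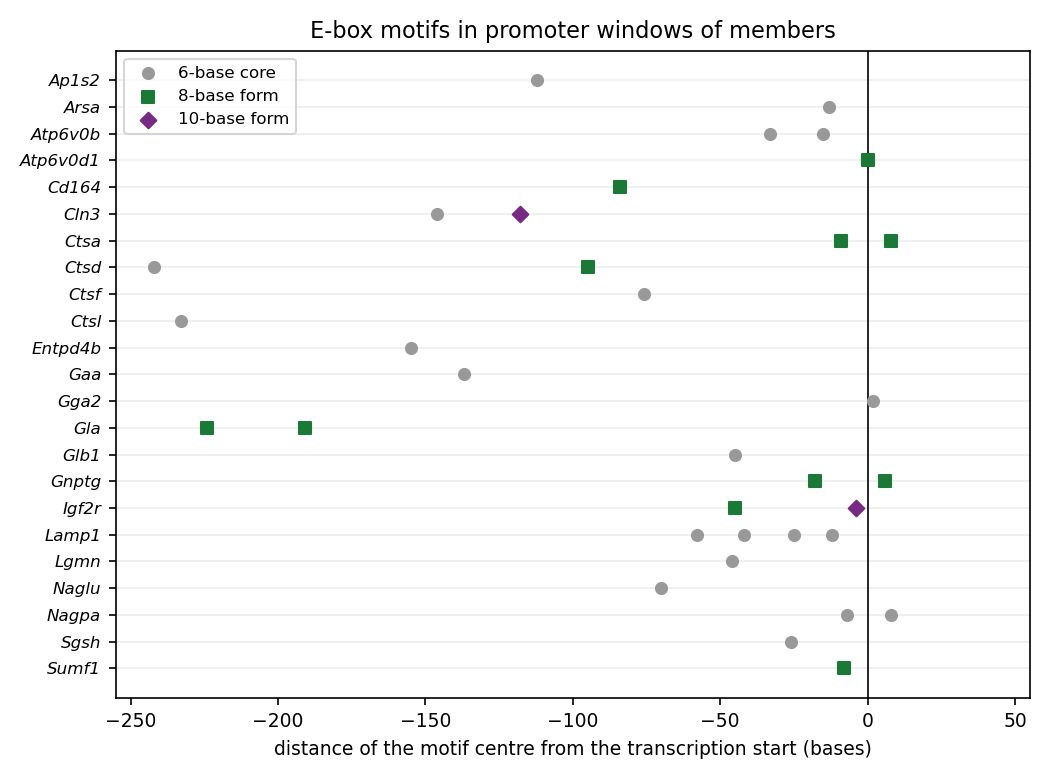
E-box motifs in the promoter windows of the 23 genes that hold the 6-base core, with distance of the motif centre from the transcription start in bases on the horizontal axis and 1 gene a row. Gray circles are cores alone, green squares the 8-base form and purple diamonds the 10-base form, and every symbol lies between -242 and 8 bases.

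The genes covered nearly 3 orders of magnitude in level, and 5 of them, Psap, Ctsl, Ctsb, Atp6v0c and Ctsd, held 33.8% of their summed TPM. The median of the members' means was 33.9 TPM, against 14.7 TPM over the 15390 genes that averaged 1 TPM or more. Of the 110 genes, 91 averaged 10 TPM or more, 29 averaged 100 TPM or more, and 108 were annotated as protein coding. Together they made up 1.29% and 1.26% of all TPM in the K823R libraries, and 1.29% and 1.16% in the WT libraries. Their summed TPM was 12745.2 ± 240.1 in K823R and 12261.8 ± 893 in WT (SD, n = 2 each). The difference of 483 TPM was smaller than the SD of the WT libraries, and 2 against 2 libraries cannot give an exact permutation p below 0.333. In WT replicate 2 the sum was 11630.1 TPM, and the other 3 libraries lay between 12575.4 and 12914.9 TPM. Without that library the summed difference was -148 TPM. Just inside the limit of 1 TPM lay Slc11a1, Ap1g2 and Galns, and just outside it lay Gm17149 at 0.912 TPM, Gm15956 at 0.665 TPM and Gm4829 at 0.573 TPM on average. Below the limit were 64 annotated rows, 37 of them listed at 0 in every library.

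**Figure D2:**
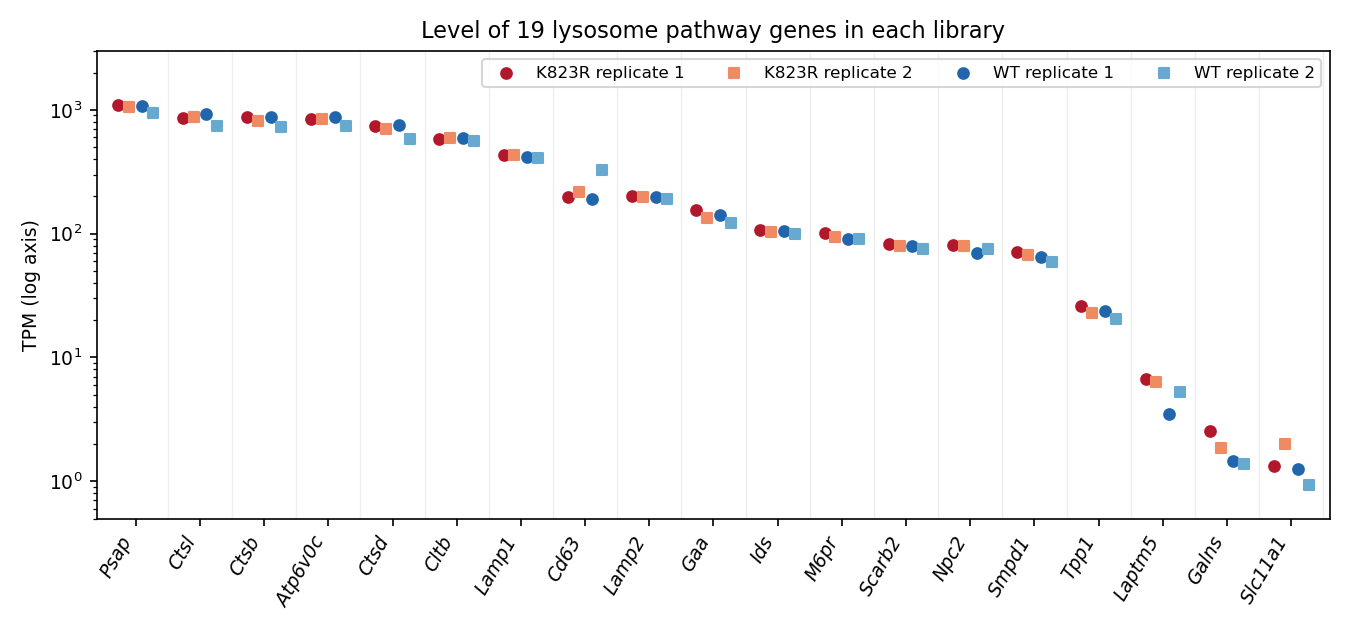
TPM of 19 named genes in each library, on a log axis, with 1 point per library and the K823R libraries left of the WT libraries for each gene. For most genes the 4 points nearly coincide, while Cd63 is separated by WT replicate 2 and Laptm5 by WT replicate 1.

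No gene of the pathway passed the test between genotypes. Tests used limma on log2(TPM + 1), K823R minus WT, with Benjamini-Hochberg adjustment over 15390 genes and a threshold of 0.05, and the lowest adjusted p among the 110 was 0.918. Across all genes 1 passed (0.0065%). At an unadjusted p under 0.05, 3 members were higher and 1 was lower, where 2.57% of all genes were higher and 2.19% lower. Over all genes that was 395 higher and 337 lower, and after quantile normalization 335 higher and 507 lower, while the members were again 3 and 1. The 3 higher were Gm20460, Abca2 and Gm27177, and the lower was Ap1s2. For a typical member the log2 difference had a standard error of 0.106 and its 95% interval a half-width of 0.279 (medians over the 110). Smaller differences were thus mostly not told from 0 in a single gene, even before adjustment. After adjustment much larger ones were not either, as Gm20460 had a difference of 1.12 (limma adjusted p = 0.918). For 50 members the standard error was at least as large as the difference.

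Most differences pointed the same small way. In 83 of 110 members (75.5%) the difference was above 0, against 57.4% of all genes, and the median log2 difference was 0.089, against 0.026 over all genes. For 38 members (34.5%) the K823R libraries were both above the 2 WT libraries, against 19.4% of all genes. The opposite order held for 7 members, against 14.6% of all genes. These counts varied with the library left out. WT replicate 2 was the lowest library for 62 members (56.4%) and for 35.7% of all genes, and K823R replicate 1 was the highest for 55 of the 110 and for 33.1% of all genes. Without WT replicate 2, 63 of 110 members were above 0 and the median was 0.017, against 49.3% and a median of -0.0022 over all genes. Without WT replicate 1, 92 of 110 were above 0 and the median was 0.126, against 59.9% and 0.050 over all genes. Over all genes, 50.6% were above 0 without K823R replicate 1 (median 0.0024), and 60.2% without K823R replicate 2 (median 0.046). The 38 and 7 separated members became 46 and 26 without WT replicate 2, where 32.9% of all genes were apart and higher and 34.6% apart and lower. Against WT replicate 1, the median difference was 0.043 for K823R replicate 1 and 0.0092 for K823R replicate 2. Against WT replicate 2, the medians were 0.17 and 0.11. The WT libraries themselves differed by 0.082 (replicate 1 minus replicate 2) at the median. Over all genes the medians for K823R replicates 1 and 2 were 0.018 and -0.025 against WT replicate 1, and 0.067 and 0.026 against WT replicate 2. The WT libraries differed by 0.047 over all genes. In bulk tissue, fewer cells of a type and less RNA per cell cannot be told apart.

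**Figure D3:**
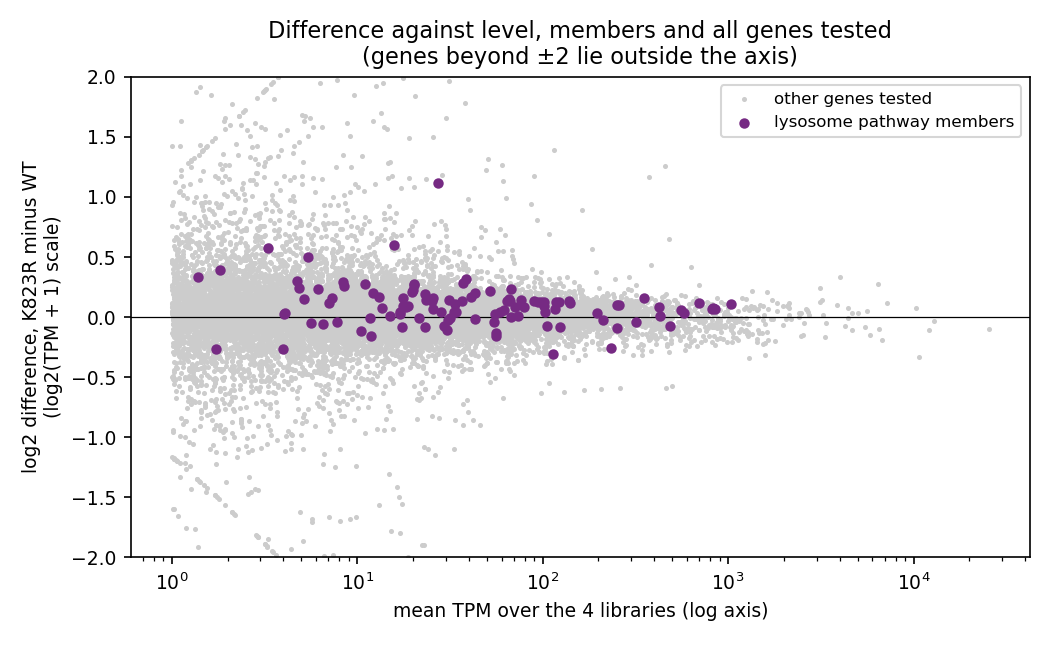
Log2 difference, K823R minus WT, against mean TPM on a log axis, with the members in purple and the other tested genes in gray. The members lie close to 0 across their range, with Gm20460 at 1.12 standing above the rest.

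**Figure D4:**
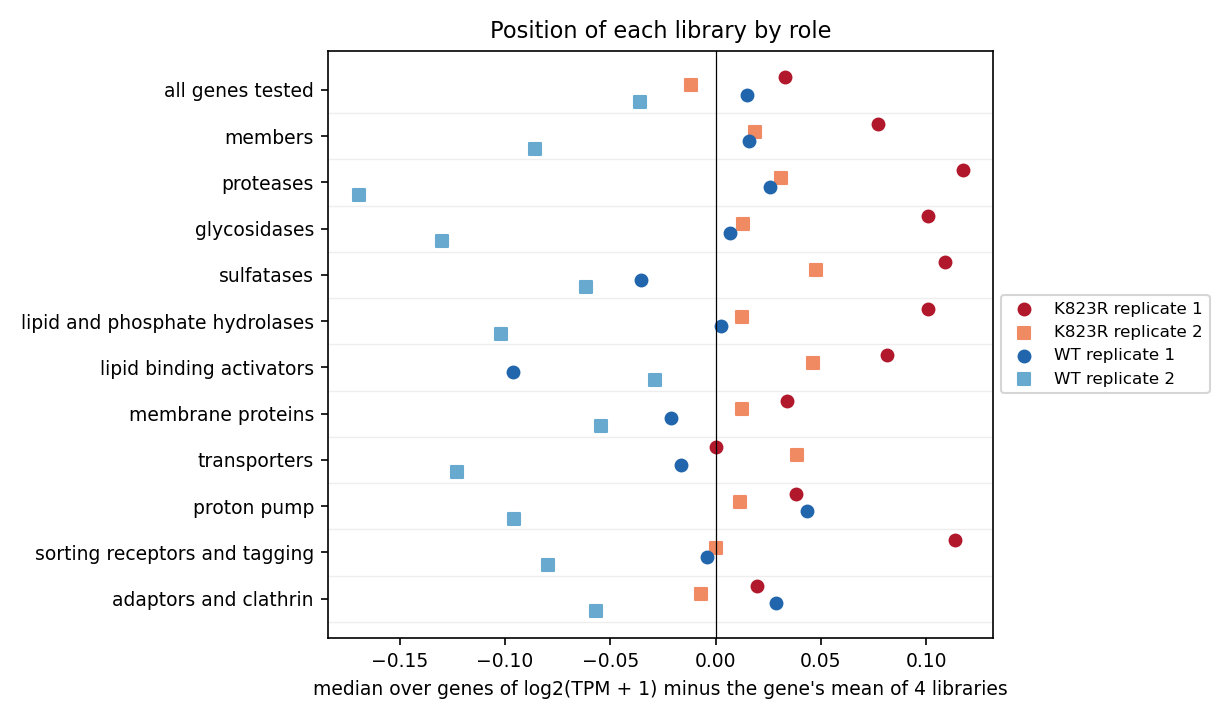
Median over genes of the library's log2(TPM + 1) minus the gene's mean of 4 libraries, for all genes tested, the members and each of 10 roles, with K823R libraries drawn above WT libraries. WT replicate 2 is the lowest library for all genes tested (-0.036), for the members (-0.086) and in 9 of the 10 roles drawn, the exception being lipid binding activators, where WT replicate 1 is lower.

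Among the soluble enzymes, the proteases were the most abundant. They cut proteins to peptides and amino acids, and 12 of 13 had a difference above 0 (median 0.13), none past the test. Ctsl, the cysteine protease cathepsin L, had 855 and 869.6 TPM in K823R, against 918 and 741 TPM in WT. Ctsb, cathepsin B, had 869 and 806 TPM in K823R, against 881 and 721 TPM in WT. Ctsd, the aspartic protease cathepsin D whose promoter is printed above, had 740.5 and 702 TPM in K823R, against 753 and 583 TPM in WT (difference 0.12, standard error 0.14, limma adjusted p = 0.935). In all 3 genes WT replicate 1 was the highest library and WT replicate 2 the lowest, so the groups overlapped. Lgmn, the asparaginyl endopeptidase legumain, had 378 and 358 TPM in K823R, against 381 and 285 TPM in WT, the same pattern with WT replicate 1 only just above K823R replicate 1. With WT replicate 2 left out, the differences turned to -0.091 for Ctsl, -0.073 for Ctsb, -0.063 for Ctsd and -0.052 for Lgmn, and 7 of 13 proteases were above 0 (median 0.034). The list median was 0.082 without K823R replicate 1, 0.20 without K823R replicate 2 and 0.22 without WT replicate 1. Tpp1, the tripeptidyl peptidase lost in a form of neuronal ceroid lipofuscinosis, had 26.1 and 23.0 TPM in K823R, against 23.7 and 20.6 TPM in WT. Its libraries overlapped too. Ctsf, cathepsin F, had 58.7 and 52.7 TPM in K823R, against 49.9 and 45.7 TPM in WT, and here the groups did not overlap (difference 0.21, standard error 0.10, limma adjusted p = 0.918). Its group means were 55.7 ± 4.21 TPM in K823R and 47.8 ± 2.98 TPM in WT (SD, n = 2 each). Ctsf had the smallest unadjusted p of the proteases.

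The glycosidases remove sugars from glycoproteins, glycolipids and glycogen, and all 16 had a difference above 0, from 0.027 to 0.29, with a median of 0.12. For 7 of the 16 the K823R libraries were both above the 2 WT libraries, the order that 19.4% of all genes had. Gaa, the acid alpha-glucosidase that digests glycogen, had 154 and 134 TPM in K823R, against 141 and 122 TPM in WT, overlapping. Hexa, a subunit of an enzyme that degrades gangliosides, had 69.4 and 65.0 TPM in K823R, against 62.4 and 60.1 TPM in WT. The groups did not overlap for Hexa, with a difference of 0.13 (standard error 0.08, limma adjusted p = 0.918). Glb1, beta-galactosidase, had 23.4 and 20.9 TPM in K823R, against 19.8 and 16.9 TPM in WT, and its 22.2 ± 1.77 and 18.3 ± 2.00 TPM (SD, n = 2 each) gave a difference of 0.26 (standard error 0.12, limma adjusted p = 0.918). Gla, alpha-galactosidase A, had 17.2 and 20.2 TPM in K823R, against 18.7 and 14.6 TPM in WT. Without WT replicate 2, 11 of the 16 were above 0 and the median was 0.028, and the Gla difference turned to -0.0078. The list median was 0.073 without K823R replicate 1, with 13 of 16 above 0.

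Sulfatases remove sulfate from glycosaminoglycans and sulfolipids, and 7 of 8 in this group, which includes their activating enzyme, had a difference above 0 (median 0.21, none past the test). Ids, iduronate sulfatase, was the most abundant at 107 and 103 TPM in K823R, against 105 and 99.2 TPM in WT. Galns, a sulfatase of keratan sulfate, was just above the level limit with 2.53 and 1.87 TPM in K823R, against 1.47 and 1.38 TPM in WT. The activating enzyme Sumf1 ran the other way, with 30.6 and 28.4 TPM in K823R, against 31.2 and 32.3 TPM in WT. Leaving out WT replicate 2, the Ids difference turned to -0.0026 and 6 of 8 were above 0 (median 0.11).

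The lipid and phosphate hydrolases had a median difference of 0.044, and 5 of 8 were above 0. Smpd1, acid sphingomyelinase, had 71.4 and 66.6 TPM in K823R, against 65.1 and 58.8 TPM in WT. Pla2g15, a lysosomal phospholipase, had 12.3 and 11.9 TPM in K823R, against 10.6 and 9.04 TPM in WT (difference 0.28, standard error 0.12, limma adjusted p = 0.918). Neither group overlapped the other in these 2 genes, with K823R higher, as for 3 of the 8 in this list and 19.4% of all genes. Lipa, the acid lipase of cholesteryl esters, overlapped fully, at 45.7 and 40.2 TPM in K823R and 46.2 and 40.5 TPM in WT. Leaving out K823R replicate 1 gave these hydrolases a median of 0.069 and leaving out K823R replicate 2 gave 0.086, with 6 of 8 above 0 each time. All 8 were above 0 without WT replicate 1 (median 0.10), and 5 of 8 without WT replicate 2 (median 0.019).

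The small activators present lipids to these enzymes, and all 4 had a difference above 0, also without WT replicate 2. Psap, the precursor of the saposins, was the most abundant gene of the pathway, with 1099 and 1061 TPM in K823R, against 1065 and 937 TPM in WT. K823R replicate 2 lay below WT replicate 1 for it, and the difference of 0.11 had a standard error of 0.09. Gm2a, the activator for breakdown of ganglioside GM2, had 23.1 and 21.2 TPM in K823R, against 16.8 and 19.4 TPM in WT (difference 0.28, standard error 0.11, limma adjusted p = 0.918). Npc2, which carries cholesterol, had 81.2 and 80.0 TPM in K823R, against 70.4 and 75.7 TPM in WT. For both genes the groups did not overlap, with K823R higher, as for 3 of these 4 activators and 19.4% of all genes.

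Counted together, hydrolases and activators were above 0 in 44 of 49 genes with a median of 0.13, and 33 of 49 with a median of 0.039 without WT replicate 2. By comparison 57.4% of all genes were above 0 with a median of 0.026, and 49.3% with a median of -0.0022 without that library. The joined list was not among the planned lists.

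**Figure D5:**
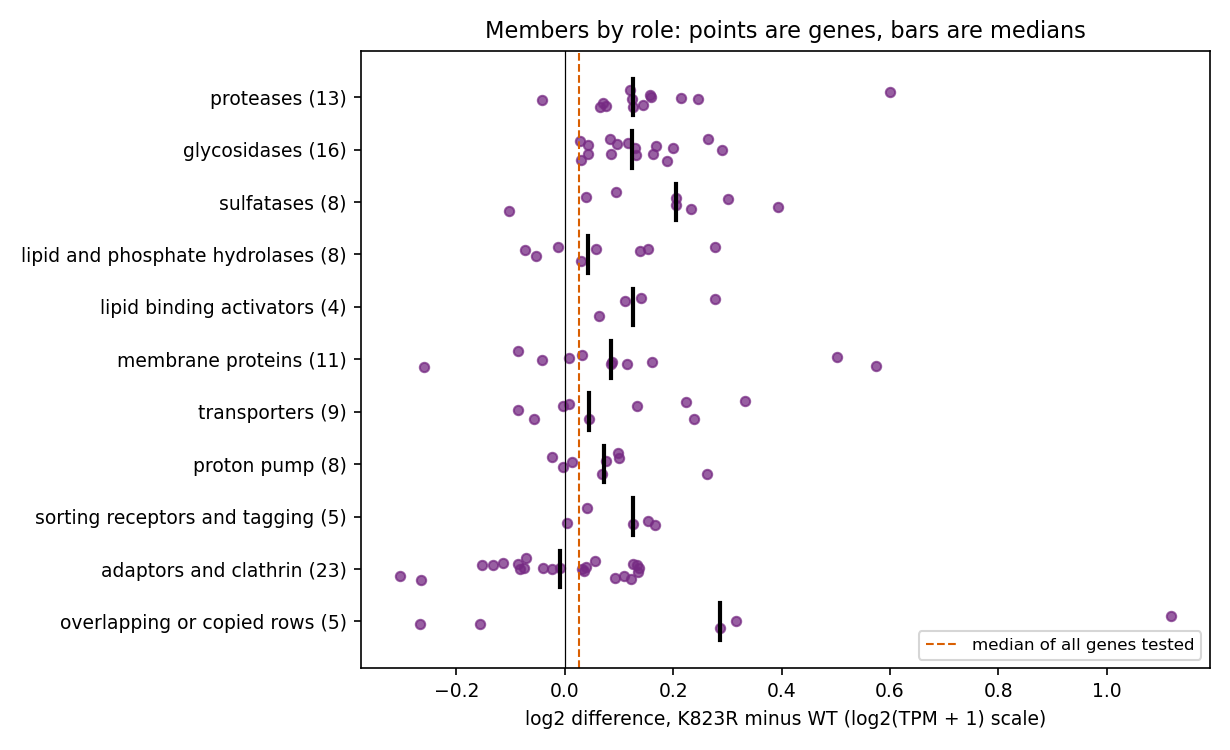
Log2 difference, K823R minus WT, for each of the 110 genes by role, with points for genes, black bars for medians and a dashed line at the median of all genes tested (0.026). Enzyme roles lie mostly right of 0 and adaptors and clathrin straddle it with a median of -0.0080.

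Membrane proteins line the organelle, and 8 of 11 had a difference above 0 (median 0.085). Lamp1 (ENSMUSG00000031447, chr8:13159161-13175338 on GRCm38), the main glycoprotein of the lysosomal membrane, had 435 and 435 TPM in K823R, against 414 and 406 TPM in WT. The groups did not overlap, with means of 435 ± 0.099 TPM in K823R and 410 ± 5.83 TPM in WT (SD, n = 2 each). Its difference of 0.09 had a standard error of 0.06 and a 95% interval of -0.07 to 0.25 (limma adjusted p = 0.918). Lamp2, its relative with a role in autophagy, had 201 and 196 TPM in K823R, against 199 and 189.7 TPM in WT, overlapping. Scarb2, the receptor that carries glucocerebrosidase, had 83.2 and 79.7 TPM in K823R, against 79.0 and 74.5 TPM in WT. Cd63, a tetraspanin of late endosomes, stood apart through 1 library, with 198 and 219 TPM in K823R, against 189 and 328 TPM in WT. The Cd63 difference was -0.26 and turned to 0.13 without WT replicate 2, and the Lamp2 difference turned to -0.0021. The list had a median of 0.047 without K823R replicate 1, 0.056 without K823R replicate 2 and 0.043 without WT replicate 2, each time with 8 of 11 above 0.

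Among the transporters was the protein-coding member with the smallest p of the higher ones. Abca2 (ENSMUSG00000026944, chr2:25428703-25448540 on GRCm38), an ATP-binding cassette transporter of lysosomal and late endosomal membranes, had 77.2 and 69.8 TPM in K823R, against 62.3 and 61.9 TPM in WT. The means were 73.5 ± 5.19 TPM in K823R and 62.1 ± 0.226 TPM in WT (SD, n = 2 each), without overlap. Its difference was 0.24, with a standard error of 0.08 and a 95% interval of 0.02 to 0.46 (unadjusted p = 0.0385, limma adjusted p = 0.918). Leaving out any 1 library gave 0.17 to 0.31, where the sign could not turn because the groups did not overlap. Ctns, the cystine exporter cystinosin, had 22.02 and 21.3 TPM in K823R, against 18.6 and 18.2 TPM in WT, also without overlap (difference 0.22, limma adjusted p = 0.918). Npc1, the cholesterol transporter that works with Npc2, had 31.1 and 32.5 TPM in K823R, against 32.5 and 31.3 TPM in WT, and overlapped. Slc17a5, the sialic acid exporter, was lower in both K823R libraries at 23.3 and 21.9 TPM, against 23.9 and 24.1 TPM in WT. Of the 9 genes here, 6 had a difference above 0 (median 0.045), and 7 without WT replicate 1 (median 0.199).

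The proton pump, the vacuolar ATPase, is annotated with 8 members, of which 6 had a difference above 0 (median 0.072). Atp6v0c, the proteolipid ring subunit, had 851 and 843 TPM in K823R, against 869 and 743 TPM in WT. Without WT replicate 2 its difference turned to -0.037 and 3 of 8 were above 0 with a median of -0.025. Dropping K823R replicate 1 gave the pump genes a median of 0.040, and dropping WT replicate 1 gave 0.12. Tcirg1, a V0 a subunit, had 9.30 and 9.34 TPM in K823R, against 6.59 and 8.76 TPM in WT, without overlap (difference 0.26, standard error 0.16, limma adjusted p = 0.918). Of 12 tested pump subunits outside the annotation, 7 were above 0 (median 0.0043), and 1 of 12 without WT replicate 2 (median -0.067). Their median was -0.030 without K823R replicate 1, 0.039 without K823R replicate 2 and 0.080 without WT replicate 1. The most abundant, Atp6v1e1, had 563 and 553 TPM in K823R, against 577 and 563 TPM in WT. Only Atp6v0e had an unadjusted p under 0.05 in this list, with 64.5 and 59.5 TPM in K823R, against 78.1 and 72.4 TPM in WT.

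The sorting step is run by receptors and tagging enzymes. All 5 had a difference above 0 (median 0.13), and 3 of 5 without K823R replicate 1 (median 0.021) or without WT replicate 2 (median 0.081). M6pr, the cation-dependent mannose 6-phosphate receptor, had 102 and 94.6 TPM in K823R, against 89.7 and 89.97 TPM in WT, without overlap. Igf2r, the large receptor whose promoter holds the 10-base motif, had 5.78 and 5.22 TPM in K823R, against 5.14 and 4.55 TPM in WT.

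Adaptors and clathrin did not lean one way: 11 of 23 had a difference above 0 and the median was -0.0080. Cltb and Clta, the clathrin light chains, had 582 and 587 TPM and 571 and 571 TPM in K823R, against 588 and 556 TPM and 569.8 and 529.9 TPM in WT. The heavy chain Cltc had 489 and 460.0 TPM in K823R, against 534 and 465 TPM in WT. Ap1s2 (ENSMUSG00000031367, chrX:163909017-163933666 on GRCm38), a sigma subunit of the AP-1 adaptor, was the only member lower at an unadjusted p under 0.05. It had 97.5 and 105 TPM in K823R, against 131 and 119.8 TPM in WT, without overlap. The difference was -0.30, with a standard error of 0.09 and a 95% interval of -0.53 to -0.08 (unadjusted p = 0.018, limma adjusted p = 0.918). The sister subunit Ap1s1 was also below WT in both K823R libraries, with 241 and 246 TPM in K823R, against 266 and 251 TPM in WT. The scarce Ap1g2, near the level limit, had 1.40 and 1.52 TPM in K823R, against 1.55 and 2.43 TPM in WT. Without WT replicate 2 the Cltb difference turned to -0.0080. Without WT replicate 1 the list had 16 of 23 above 0 (median 0.073), and without K823R replicate 2 it had 12 of 23 (median 0.025).

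Among 5 rows that share sequence or exons with another gene, the largest difference of the pathway was found. Gm20460 (ENSMUSG00000092176, chr17:34614484-34627349 on GRCm38, minus strand, a processed transcript) had 34.98 and 39.9 TPM in K823R, against 13.8 and 20.2 TPM in WT. Its means were 37.4 ± 3.49 TPM in K823R and 17.0 ± 4.53 TPM in WT (SD, n = 2 each), a difference of 1.12 with a standard error of 0.20 and a 95% interval of 0.60 to 1.64 (unadjusted p = 0.00299, limma adjusted p = 0.918). It shares 957 exon bases with Ppt2 (60.9% of its own) and 615 with Egfl8 (39.1%), on the same strand, so reads can be divided between them and the value is uncertain. Leaving out any 1 library gave 0.86 to 1.38. Ppt2, a thioesterase, had 31.7 and 25.4 TPM in K823R, against 31.6 and 28.4 TPM in WT, overlapping. Gm27177, a row annotated as antisense with 100% identity to Gm16867 over 2946 bases, had 44.1 and 37.7 TPM in K823R, against 32.3 and 34.2 TPM in WT. The copied partner Gm16867 had 12.9 and 9.31 TPM in K823R, against 15.2 and 9.96 TPM in WT. Entpd4 and Entpd4b, whose transcripts are identical over 3589 bases, varied as much between libraries of 1 group as between groups. Entpd4 had 77.4 and 68.7 TPM in K823R, against 92.6 and 56.7 TPM in WT. Without the members that share sequence, 79 of 103 were above 0 (median 0.092), and 1 was higher and 1 lower at an unadjusted p under 0.05.

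Several members are expressed strongly in macrophages and other myeloid cells, and all 8 of those had a difference above 0, with a median of 0.30. Laptm5, a lysosomal membrane protein of leukocytes, had 6.66 and 6.39 TPM in K823R, against 3.52 and 5.24 TPM in WT (difference 0.50, standard error 0.20, limma adjusted p = 0.918). Cathepsin S, Ctss, had 16.8 and 20.7 TPM in K823R, against 8.06 and 17.6 TPM in WT. Cd68, the macrophage marker, had 2.43 and 6.05 TPM in K823R, against 1.81 and 2.88 TPM in WT. WT replicate 1 was the lowest library for these 3. Of 16 macrophage markers 15 were tested, 11 were above 0 (median 0.34) and none passed the test. Adgre1, Cd163, Tyrobp and Cd14 were below 0. The median over the markers was 0.064 without WT replicate 1, with 9 of 15 above 0, and 0.205 without K823R replicate 2, 0.547 without K823R replicate 1 and 0.657 without WT replicate 2. Their summed level was 182.2 and 230.6 TPM in K823R, against 126.4 and 189.8 TPM in WT. No marker of the list was at 0 in any library, and Ptprc was lowest at 0.65 and 0.62 TPM in K823R, against 0.29 and 0.75 TPM in WT. Lyz2, the most abundant, had 60.8 and 75.3 TPM in K823R, against 45.8 and 64.7 TPM in WT. C1qa, C1qc and Fcer1g had an unadjusted p under 0.05 (limma adjusted p = 0.918 for each), and C1qa, a complement subunit, had 29.9 and 37.4 TPM in K823R, against 20.8 and 26.7 TPM in WT. The part of macrophage RNA in the member differences was not tested. Leaving out the myeloid-enriched members, 75 of the remaining 102 were above 0 and the median was 0.085. Without WT replicate 1 the median of the 8 was 0.15, and the Ctss difference was 0.084, against 0.60 with all libraries.

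Markers of other cell types also varied between libraries, and none passed the test. Neuron markers, all 15 tested, summed to 19049 and 18435 TPM in K823R, against 19728 and 17135 TPM in WT, and were lowest in WT replicate 2. Satellite glia markers had 4 of 9 above 0 and a median difference of -0.012. That median was 0.079 without K823R replicate 1, -0.0023 without K823R replicate 2, -0.030 without WT replicate 1 and 0.088 without WT replicate 2. Myelinating Schwann cell markers summed to 14572 and 17341 TPM in K823R, against 11812 and 14683 TPM in WT, and fibroblast markers to 4417 and 2500.4 TPM in K823R, against 1446 and 2953 TPM in WT. Markers of oligodendrocytes and astrocytes summed to 272.6 and 326 TPM in K823R, against 25.0 and 223 TPM in WT, where WT replicate 1 stood apart. All 8 tested had both K823R libraries above both WT libraries (median difference 1.69), the order that 19.4% of all genes had. Without WT replicate 1 all 8 were still above 0 (median 0.487). Above 0 were 9 of 10 markers of Schwann cells, 11 of 11 of fibroblasts, 8 of 8 of endothelium and 0 of 5 of blood. Without WT replicate 1 these were 6 of 10, 7 of 11, 4 of 8 and 5 of 5. Of single markers, the satellite glia cadherin Cdh19 had 27.5 and 31.0 TPM in K823R, against 34.7 and 37.7 TPM in WT. The myelin genes Mag and Pmp2 had 68.3 and 77.3 TPM and 31.7 and 27.8 TPM in K823R, against 34.1 and 54.7 TPM and 15.6 and 21.3 TPM in WT. Mgp, the matrix Gla protein, had 141 and 88.3 TPM in K823R, against 45.7 and 72.7 TPM in WT. These 4 and the central glia markers Cspg5 and Agt had an unadjusted p under 0.05 (limma adjusted p = 0.918 for each). Cspg5 had 9.95 and 9.90 TPM in K823R, against 6.11 and 6.45 TPM in WT, and Agt had 10.1 and 9.66 TPM in K823R, against 6.83 and 5.93 TPM in WT. Groups overlapped for the most abundant markers of 5 other lists, Uchl1 of neurons, Apoe of satellite glia, Apod of fibroblasts, Cldn5 of endothelium and Hbb-bs of blood. Mobp of oligodendrocytes had 135 and 178 TPM in K823R, against 2.31 and 113 TPM in WT. The part these differences have in the lysosomal values was not tested.

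The nutrient-sensing genes around TFEB had a median of -0.039, with 7 of 19 above 0. It was 0.010 without K823R replicate 2, with 10 of 19 above 0, and -0.0083 without WT replicate 1, with 9 of 19. Over all genes the medians were 0.046 without K823R replicate 2 and 0.050 without WT replicate 1. Tfeb itself had 10.7 and 11.5 TPM in K823R, against 10.4 and 10.1 TPM in WT. Tfe3, its relative, had 26.2 and 28.0 TPM in K823R, against 29.5 and 21.7 TPM in WT. Lamtor2, a subunit of the mTORC1 platform and the most abundant gene of that list, had 163 and 194 TPM in K823R, against 175 and 168 TPM in WT. Fusion and positioning genes had 12 of 19 above 0 (median 0.056), led in level by Rab7 at 352 and 340.1 TPM in K823R, against 345 and 331 TPM in WT. Their median was 0.028 without K823R replicate 1, 0.12 without WT replicate 1 and 0.0069 without WT replicate 2. No gene of either list had an unadjusted p under 0.05.

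Of the lysosomal proteins outside the annotation, 16 of 19 were above 0 (median 0.084), and 12 of 19 without WT replicate 2. The median was 0.050 without K823R replicate 1, 0.14 without K823R replicate 2 and 0.158 without WT replicate 1. Grn, the precursor of the granulins, had 45.9 and 46.9 TPM in K823R, against 38.6 and 38.5 TPM in WT (difference 0.26, standard error 0.07, limma adjusted p = 0.918). Glmp, a glycosylated lysosomal membrane protein, had 69.9 and 67.9 TPM in K823R, against 57.3 and 61.1 TPM in WT (difference 0.22, standard error 0.08, limma adjusted p = 0.918). The phospholipase-like Pld3 was the most abundant, at 111 and 109 TPM in K823R, against 101 and 94.8 TPM in WT. For all 3 the groups did not overlap, with K823R higher, as for 8 of the 19 in this list and 19.4% of all genes.

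Members that hold the E-box core, 23 genes, were above 0 in 20 with a median of 0.13, against 44 of 63 with a median of 0.075 for members with a promoter window and no core. When WT replicate 2 was left out these were 13 of 23 (median 0.027) and 35 of 63 (median 0.013). Dropping K823R replicate 1 gave the 23 genes a median of 0.082, against 0.055 for the 63. Dropping WT replicate 1 gave 0.219, against 0.113 for the 63. Ctsd, Lgmn, Gaa and Glb1 hold it, and so does Ap1s2, the member with the largest negative difference. The difference between these 2 sets of genes was not tested.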

How the data were processed

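RNA from trigeminal ganglia of 2 K823R and 2 WT mouse samples was sequenced as paired reads after mRNA isolation and random hexamer priming, per the labels' protocols, and samples were grouped by title and genotype label. Per the submitters' processing notes, the build was GRCm38.p6 and the tools were HISAT2, edgeR, RSEM and fastp 0.19.5. What each tool did, the annotation release and whether strand was used are not stated there. Values in the authors' deposited table are TPM. TPM keeps no read total, so depth and counting intervals are unknown, and reads shared by overlapping genes or copies leave their values uncertain. The authors' group mean columns were not used, and 0 columns of other samples were present.

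Members were rows annotated to the lysosome pathway averaging 1 TPM or more. The members and lists were chosen with earlier results of these data known. Values were transformed as log2(TPM + 1), which understates differences of low genes, and 15390 genes averaging 1 TPM or more were tested with limma 3.58.1 in R 4.3.3 (trend, two-sided, Benjamini-Hochberg, threshold 0.05, 2 residual and 2.67 prior degrees of freedom). The test was also run on simulated data with known changes, whose levels and spreads were taken from the fit to these data. Differences are K823R minus WT. Lists are described by counts and medians.

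Named genes were fixed lysosomal landmarks, members with an unadjusted p under 0.05, the most abundant member and that with the smallest p in each role, and the 3 nearest each side of the level limit. Pathway and marker lists gave their most abundant gene and at most 3 with an unadjusted p under 0.05. Some genes that the rule would name are not reported here. Other named genes were chosen after their values were seen. Coordinates and exon overlaps come from GENCODE M21 on GRCm38. Copies were searched with BLAST 2.17.0 (95% identity over 90% of either transcript, at least 200 bases). Promoter windows come from RefSeq on GRCm38.p6. Alternatives were a pseudocount of 0.1 TPM, no level filter, a mean of at least 10 TPM, 3 rescalings, a replicate block, and leaving out each library or the myeloid-enriched members. Leaving out members that share sequence was chosen after seeing the data. Protein tail motifs were not analysed here. Figures used matplotlib 3.10.9, tables pandas 2.3.3 in Python 3.11.15.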

Additional observations from a re-analysis of the deposited data

How the results depend on the processing

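No member passed limma's adjusted threshold under any alternative run. Members higher at an unadjusted p under 0.05 numbered 3 in the report, 5 with the replicate block, 5 with upper-quartile scaling, 5 with median-of-ratios scaling, 1 without members that share sequence, and 2 to 11 leaving out 1 library. Over all genes the counts higher were 395, 495 with the block, 372 and 352 with the 2 scalings, and 341 to 661 leaving out 1 library. Members lower numbered 1, and 0 to 2 leaving out 1 library, against 337 and 217 to 450 of all genes. The K823R libraries were all above the WT libraries for 38 members, and for 46 to 74 leaving out 1 library, and all below for 7, and for 13 to 26, with fewer libraries to separate. Over all genes these shares were 19.4%, and 30.4% to 44.5% leaving out 1 library, and 14.6%, and 24.3% to 34.6%. The median difference was 0.089, and 0.017 to 0.126 leaving out 1 library, lowest without WT replicate 2. The summed difference was 483 TPM, and -148 to 1115. Members above 0 numbered 83, 79 with either rescaling and 77 with quantile normalization, when all genes were above 0 in 53.2%, 51.6% and 49.2%. Same-numbered libraries did not deviate together (r = 0.050 over 15390 genes, which are not independent). With so few libraries this cannot decide whether the numbers pair the samples. Counts of separated libraries were not recomputed with another pseudocount, without the level filter or with the block, which cannot alter them, and tail motifs of proteins were not run.

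Of 71 named genes, 24 changed sign under an alternative, in 34 of 772 values, and none passed the threshold. Leaving out 1 library gave log2 differences in these ranges: Atp6v0c -0.037 to 0.19, Cd63 -0.65 to 0.13, Cltb -0.0080 to 0.071, Ctsb -0.073 to 0.22, Ctsd -0.063 to 0.30, Ctsl -0.091 to 0.22, Ids -0.0026 to 0.080, Lamp2 -0.0021 to 0.066, Lgmn -0.052 to 0.37, Npc1 -0.037 to 0.028, Cltc -0.17 to 0.029, Entpd4 -0.34 to 0.36, Gm16867 -0.44 to 0.13, Ppt2 -0.23 to 0.080, Gla -0.0078 to 0.33, Tfe3 -0.12 to 0.31, Lipa -0.11 to 0.081, Lamtor2 -0.072 to 0.18, Uchl1 -0.094 to 0.086, Apoe -0.0023 to 0.15, Apod -0.28 to 0.48, Cldn5 -0.025 to 0.39, Hbb-bs -0.56 to 0.43. The Entpd4 difference was -0.0078 under upper-quartile scaling, -0.014 under median-of-ratios scaling and -0.020 under quantile normalization, which also gave 0.0017 for Atp6v1e1 and 0.024 for Uchl1. The cause was not tested.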
